A study of Mus musculus with 9 samples.

Results

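The genes that copy DNA and divide the cell were measured in embryonic mouse hindgut with and without the endothelin receptor Ednrb. The set names 18 S-phase genes and 22 mitotic genes, 40 in all, and each gene was read from its brightest probe set that names that gene alone. All 18 S-phase genes and 21 of the 22 mitotic genes had such a probe set, which gave 39 of the 18193 genes measured. Ccnb1 was not analysed here. The rule names the genes without using a measured value of a comparison, but the genes were chosen with earlier results of these data known.

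The 9 arrays came from terminal colon dissected from mouse embryos, labelled E14 for the samples and 14.5 days in the series text. Wild type (arrays 1B, 1C and 1D) carried no mutation named in the labels. Ednrb null (29, 37 and 41; Ednrb -/-) carried the lacZ allele in both copies of the gene. Ednrb NCC null (2, 5 and 6) was labelled Ednrb-FLEX(NCC-/-); the labels do not spell out NCC or FLEX, and the sources used here do not give the Cre driver, the strain or the number of embryos per array. Because the labels do not say whether arrays came from separate embryos, the p-values measure the spread between these arrays, which may be technical. Ednrb, the targeted gene, had log2 intensities of 11.08, 10.95 and 11.05 in wild type, 9.23, 9.40 and 8.77 in Ednrb null, and 11.15, 11.32 and 11.04 in Ednrb NCC null. Ednrb null lay below wild type (log2 difference -1.89, SE 0.14, limma adjusted p = 3.91e-05) and Ednrb NCC null differed from wild type by 0.15 (adjusted p = 0.653); whether its probes lie in a deleted stretch is not known, so this does not check the label of Ednrb NCC null. Ret, a receptor of the enteric neural crest, was lower in both mutants, by -3.23 (adjusted p = 0.000562) and -3.31 (adjusted p = 0.000721), while the epithelial keratin Krt8 and the smooth muscle gene Tagln were among the brightest genes of the arrays, at percentiles 99.0 and 98.4 of mean intensity.

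A cell that is to divide first loads the MCM helicase onto its replication origins with the help of Cdc6 and Cdt1. In S phase, Cdc45 and the GINS complex switch the helicase on, primase lays down primers, and the clamp Pcna holds the polymerases to the template, while ribonucleotide reductase and thymidylate synthase supply the nucleotides. Cyclin E and E2F factors drive the entry into S phase. In mitosis, Cdk1 with cyclins A and B, the Aurora and Polo kinases, spindle motors and the checkpoint kinases sort the chromosomes, and the anaphase-promoting complex ends the process. In the embryonic gut, epithelium, mesenchyme and enteric neural crest all divide.

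The promoters of both sets carry letters that the choice of genes did not use. RefSeq promoter windows (GRCm38.p6, 250 bases before to 50 after a transcript start) were matched by Entrez ID for 15 of the 18 S-phase genes (16 windows) and 17 of the 21 mitotic genes (17 windows). Aurkb, Ccna2, Ccne2, Gins2, Kif20a, Mcm4 and Tpx2 are not part of these counts. The motifs searched, on both strands, were the CCAAT box (CCAAT), the CHR element (TTTGAA), which is known from genes expressed late in the cell cycle, and the E2F site (TTTCCCGC, TTTCGCGC, TTTGCCGC or TTTGGCGC). A CHR element lay in 13 of 17 mitotic windows (76.5%), in 2 of 16 S-phase windows (12.5%) and in 13.4% of the 18009 windows of all genes tested. All 13 of those mitotic windows also held a CCAAT box, a pairing found in 5.23% of all windows. An E2F site lay in 6 of 16 S-phase windows (37.5%), 1 of 17 mitotic windows (5.88%) and 3.2% of all windows. The CCAAT box, with or without a CHR element, was in 11 of 16 S-phase windows (68.8%), 15 of 17 mitotic windows (88.2%) and 37.4% of all windows. These are matches of letters, not sites shown to be bound. The 4 windows below are from the 2 genes of each set with the smallest limma p in any comparison. Only genes whose window held an E2F site (S-phase), or a CCAAT box or CHR element (mitotic), were eligible. Picked on p and on motif, the windows do not stand for their sets. The S-phase pair is Mcm6, a helicase subunit at chr1:128359656-128359955, minus strand, and Cdc6, a helicase loader at chr11:98907901-98908200, plus strand. The mitotic pair is Ttk at chr9:83834439-83834738, plus strand, and Kif23 at chr9:61946750-61947049, minus strand. Each is printed 5′ to 3′ along its gene, with E2F sites in capitals in the S-phase pair and CCAAT boxes and CHR elements in capitals in the mitotic pair; in Mcm6, 2 of the 3 E2F matches overlap in 1 capital run.
Mcm6: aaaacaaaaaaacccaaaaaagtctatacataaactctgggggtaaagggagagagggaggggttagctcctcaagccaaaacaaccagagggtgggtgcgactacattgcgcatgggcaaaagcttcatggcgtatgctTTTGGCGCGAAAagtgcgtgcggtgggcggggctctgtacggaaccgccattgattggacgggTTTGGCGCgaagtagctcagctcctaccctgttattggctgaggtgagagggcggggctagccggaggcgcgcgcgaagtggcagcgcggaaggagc
Cdc6: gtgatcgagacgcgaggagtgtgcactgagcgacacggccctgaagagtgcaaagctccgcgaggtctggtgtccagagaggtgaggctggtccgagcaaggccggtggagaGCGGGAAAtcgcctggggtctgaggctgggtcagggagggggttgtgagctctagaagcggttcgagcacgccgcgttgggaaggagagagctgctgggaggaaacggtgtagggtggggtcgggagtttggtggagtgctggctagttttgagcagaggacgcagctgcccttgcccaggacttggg
Ttk: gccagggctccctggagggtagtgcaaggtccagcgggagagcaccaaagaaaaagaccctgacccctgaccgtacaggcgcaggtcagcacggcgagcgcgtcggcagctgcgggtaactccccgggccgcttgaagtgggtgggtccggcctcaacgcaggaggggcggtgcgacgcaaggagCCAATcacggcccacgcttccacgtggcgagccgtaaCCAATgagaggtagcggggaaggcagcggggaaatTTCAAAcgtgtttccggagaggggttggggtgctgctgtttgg
Kif23: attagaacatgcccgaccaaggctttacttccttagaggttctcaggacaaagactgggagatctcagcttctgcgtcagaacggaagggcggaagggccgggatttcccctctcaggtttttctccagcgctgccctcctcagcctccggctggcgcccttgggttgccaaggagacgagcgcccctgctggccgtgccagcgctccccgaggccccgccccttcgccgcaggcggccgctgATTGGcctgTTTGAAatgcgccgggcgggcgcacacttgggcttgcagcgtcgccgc

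Most members were bright; the dimmest were Tyms, among the dimmest 40% of genes, E2f1 at percentile 43.1 of mean intensity and Cdc45 at 59.8. All values are RMA intensities in log2, each gene on its own probe set. No member spanned more than 0.69 (Ttk) between its lowest and highest array. The median SD within groups was 0.13 for the S-phase genes, 0.09 for the mitotic genes and 0.13 for all genes. The largest fold between group means was 1.45, for Ttk.

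**Figure D1:**
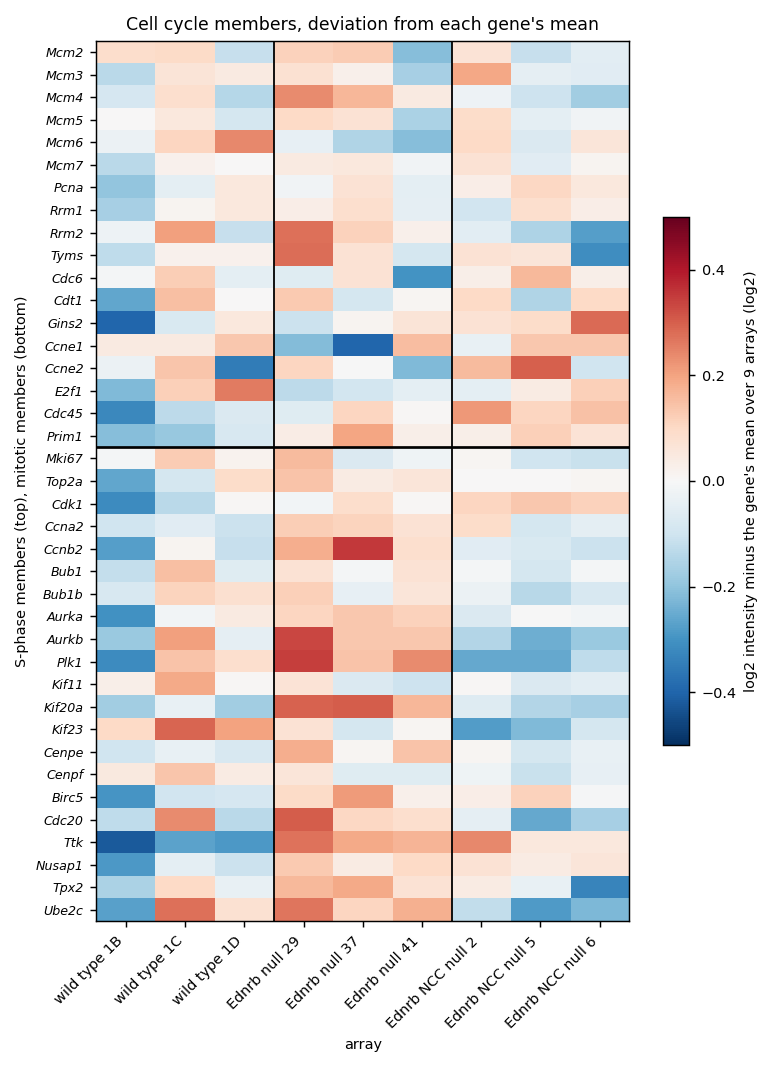
Log2 intensity of each of the 39 genes in each of the 9 arrays, as the deviation from that gene's mean over the arrays, with S-phase genes apart from mitotic genes. Mitotic genes are on average highest in Ednrb null, and wild type 1B is low in most genes of both sets.

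The wild type arrays did not sit together. Wild type 1B was the lowest of its group in 17 of 21 mitotic and 11 of 18 S-phase genes, and 1C was the highest in 17 mitotic and 10 S-phase genes. Averaged over the 21 mitotic genes, the deviation from each gene's mean was -0.172 in 1B, 0.057 in 1C and -0.028 in 1D. It was 0.166, 0.088 and 0.076 in Ednrb null 29, 37 and 41, and -0.024, -0.090 and -0.073 in Ednrb NCC null 2, 5 and 6. On this average all Ednrb null arrays lay above every other array, the nearest being wild type 1C, and the range of wild type enclosed that of Ednrb NCC null. For the S-phase genes the averages were -0.124, 0.045 and -0.008 in wild type, 0.045, 0.025 and -0.065 in Ednrb null and 0.054, 0.025 and 0.003 in Ednrb NCC null, so all groups overlapped.

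**Figure D2:**
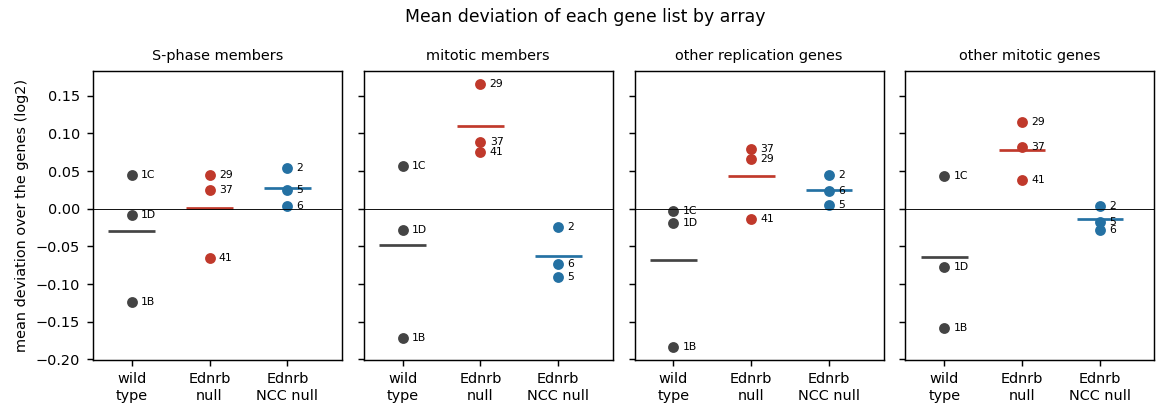
Mean deviation from each gene's own mean, per array, for the S-phase genes, the mitotic genes and the 2 wider lists of replication and mitotic genes. Ednrb null arrays lie at 0.076 to 0.166 in the mitotic genes and Ednrb NCC null arrays at -0.090 to -0.024, with wild type from -0.172 to 0.057.

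Ednrb null against wild type compares arrays with the receptor lost in the whole embryo and arrays of wild type. Here and in the other comparisons, genotype cannot be told apart from line or strain, nor from litter or batch where these differed between groups. Among the S-phase genes, 0 of 18 passed the test (adjusted p under 0.05 in limma, adjusted over all genes) and 2 had an unadjusted p under 0.05; over all genes 2.65% were called higher and 2.39% lower, and 3501 had an unadjusted p under 0.05. Primase subunit Prim1 had log2 intensities of 11.43, 11.45 and 11.56 in wild type and 11.68, 11.84 and 11.67 in Ednrb null, a difference of 0.25 (SE 0.08, adjusted p = 0.115). Its 3 Ednrb null arrays were all above wild type, as were those of Cdc45, which helps unwind the origin, at 8.86, 9.03 and 8.93 against 8.60, 8.79 and 8.85 (0.20, adjusted p = 0.268). Mcm6 lay the other way, at 11.97, 12.11 and 12.24 in wild type and 11.96, 11.85 and 11.79 in Ednrb null (-0.24, SE 0.09, adjusted p = 0.186). These 2 higher and 1 lower genes were the S-phase genes whose arrays did not overlap; of all genes, 14.4% did not overlap with Ednrb null higher and 8.19% with Ednrb null lower.

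For the remaining S-phase genes the differences ran from -0.23 (Ccne1) to 0.19 (Mcm4). Pcna had 13.54, 13.69 and 13.79 in wild type and 13.72, 13.81 and 13.69 in Ednrb null, a difference of 0.07 with a 95% interval of -0.12 to 0.25. Mcm2 differed by -0.01 (-0.26 to 0.23), Mcm3 by -0.01, Mcm5 by 0.02, Mcm7 by 0.06 and Mcm4 by 0.19 (adjusted p = 0.274). The nucleotide enzymes Rrm1, Rrm2 and Tyms differed by 0.06, 0.12 and 0.12. Of the genes that license and start replication, Cdc6 differed by -0.12, Cdt1 by 0.05 and Gins2 by 0.13, and of the entry factors, E2f1 by -0.15, Ccne2 by 0.04 and Ccne1 by -0.23 (adjusted p = 0.356). Over the 18 genes, 12 were above 0 and the median was 0.055, against 60.2% of all genes and a median of 0.039; quantile normalization turned the S-phase median to -0.011. The 95% intervals of single S-phase genes lay within -0.51 to 0.43, which bounds what 3 arrays per group could show.

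In the mitotic set, Ttk and Kif20a rose in Ednrb null and no gene fell, so 2 of 21 were called higher, where 2.65% of all genes were. Ttk, the checkpoint kinase that keeps chromosomes waiting for attachment, had 9.98, 10.13 and 10.11 in wild type and 10.67, 10.59 and 10.57 in Ednrb null. Its lowest Ednrb null array lay above the highest wild type array, and the difference was 0.54 (SE 0.09, 1.45-fold, limma adjusted p = 0.00473). A second, dimmer Ttk probe set read 6.75, 6.75 and 6.51 in wild type and 8.74, 8.55 and 8.29 in Ednrb null, a difference of 1.85 that was not tested, and the mean of both probe sets gave 1.20. Kif20a, a kinesin of the dividing midzone, had 10.50, 10.64 and 10.50 in wild type and 10.97, 10.98 and 10.84 in Ednrb null, 0.39 higher (SE 0.08, 1.31-fold, adjusted p = 0.0222). Kif20a has 1 probe set. Leaving out Ednrb null 29 (adjusted p = 0.0918), 37 (0.08), wild type 1B (0.083) or 1D (0.0597) ended its call, as did fitting only the 2 groups (0.0548).

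Other mitotic genes lay above wild type without passing. The mitotic cyclin Ccnb2 had 10.91, 11.20 and 11.07 in wild type and 11.37, 11.54 and 11.27 in Ednrb null (0.33, SE 0.10, adjusted p = 0.0849). Its arrays did not overlap, nor did those of Ccna2 (0.19), Aurka (0.21), Cenpe (0.18), Birc5 (0.27) and Nusap1 (0.24), so with Ttk and Kif20a 8 of 21 lay wholly above wild type, against 14.4% of all genes. Kif23, which bundles the central spindle, lay wholly below, at 10.70, 10.54 and 10.64 against 10.73, 10.92 and 10.83 in wild type (-0.20, adjusted p = 0.251). Mki67, the usual proliferation mark, had 12.68, 12.82 and 12.71 in wild type and 12.85, 12.62 and 12.67 in Ednrb null. That is a difference of -0.02, with a 95% interval of -0.22 to 0.17. The checkpoint genes Bub1 and Bub1b differed by 0.05 and 0.01, the motor Kif11 by -0.11 and the kinetochore gene Cenpf by -0.09. Top2a, Cdk1, Cdc20, Tpx2, Ube2c, Aurkb and Plk1 ranged from 0.16 to 0.27.

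Over the 21 mitotic genes, 17 were above 0, the median was 0.172 and 10 had an unadjusted p under 0.05. Of all 18193 genes 60.2% were above 0, the median was 0.039 and 3501 had an unadjusted p under 0.05. The mitotic median stayed above 0 in every alternative run, from 0.107 without wild type 1B to 0.237 without wild type 1C. A measure of RNA quality moved with the group: the log2 ratio of the 3' to the 5' Actb control probe sets was 0.9, 0.8 and 0.9 in Ednrb null 29, 37 and 41, against 1.32, 1.08 and 1.14 in wild type 1B, 1C and 1D. With that ratio in the model 0 mitotic genes were called (Ttk adjusted p = 0.104, Kif20a 0.349) and the median was 0.111. The differences of both genes were about as large in that model, 0.591 for Ttk and 0.371 for Kif20a, and that of Ccnb2 was smaller, at 0.197. Summed intensity of the 12 measured enteric neural crest markers was 4336 to 5091 in Ednrb null and 8026 to 10170 in wild type, and that of the 8 red blood cell markers was 26520 to 28900 against 17810 to 24540. Crest markers, with the targeted gene Ednrb among them, were called lower in 9 of 12 and red blood cell markers higher in 2 of 8. Those 2 were the embryonic globins Hba-x (0.79) and Hbb-bh1 (2.15), and the median of the 8 was 0.192. For 9 mesothelium markers, none called, summed intensity was 4930 to 6122 against 3270 to 4927. For 15 gut epithelium markers it was 33200 to 43730 against 42560 to 43510. Of these 13 were below 0 and 2 above, and 1 was called lower, Cdx1 (-1.21, adjusted p = 0.00664). For 10 smooth muscle markers it was 42230 to 52950 against 50180 to 55190. Of these 6 were below 0 and 4 above, and 1 was called lower, Cnn1 (-0.51, adjusted p = 0.0454). What part these play in the mitotic genes was not tested. In tissue arrays such as these, fewer cells of a type and less RNA per cell cannot be told apart.

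**Figure D3:**
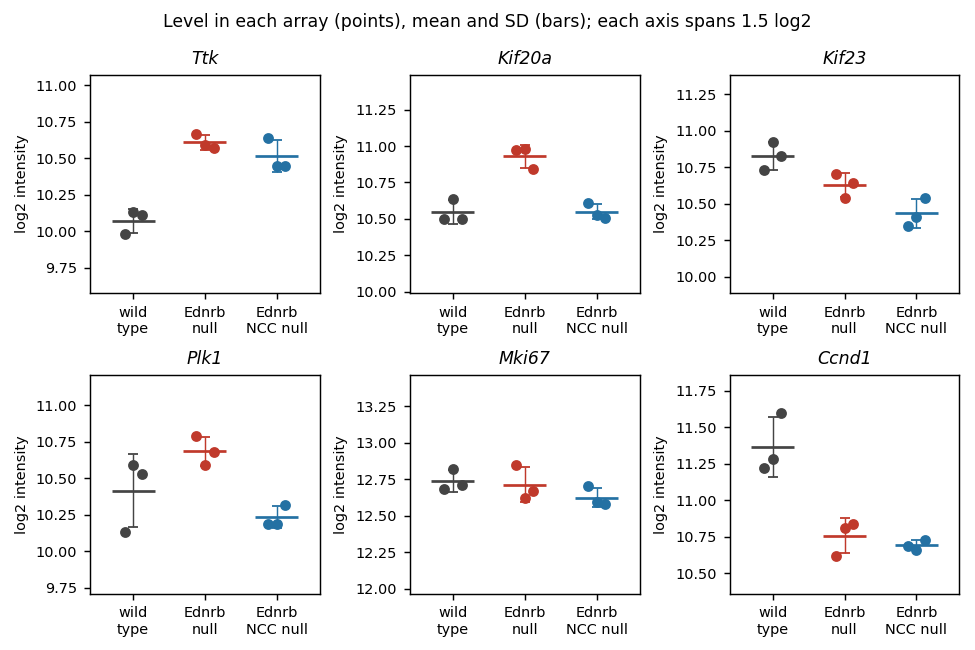
Log2 intensity per array of Ttk, Kif20a, Kif23, Plk1, Mki67 and Ccnd1 (points), with the group mean and SD (n = 3 arrays); every vertical axis spans the same log2 range. Ttk is higher in both mutants, Kif20a in Ednrb null, Kif23 is lowest in Ednrb NCC null, and Mki67 overlaps between all groups.

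Ednrb NCC null was set against the same 3 wild type arrays, so the results of both mutants share their controls. Again 0 of 18 S-phase genes passed and 3 had an unadjusted p under 0.05. Of all 18193 genes 3.7% were called higher and 1.25% lower, and 3558 had an unadjusted p under 0.05. Cdc45 had 9.14, 9.03 and 9.07 in Ednrb NCC null against 8.60, 8.79 and 8.85 in wild type (0.33, SE 0.09, adjusted p = 0.0603), and it passed without wild type 1D (adjusted p = 0.0462) or without the dimmest 40% of genes (0.0434). Its dimmer probe set differed by -0.17. Prim1 had 11.67, 11.76 and 11.71 against 11.43, 11.45 and 11.56 (0.23, adjusted p = 0.139), and its second probe set gave 0.26. Gins2, a subunit of the GINS complex, had 10.25, 10.27 and 10.46 against 9.78, 10.10 and 10.23 (0.29, adjusted p = 0.204). Those 3 genes lay wholly above wild type and none lay wholly below, where 15.6% of all genes lay above and 6.3% below.

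For the other S-phase genes the differences ran from -0.18 (Rrm2) to 0.20 (Ccne2). Pcna, at 13.77, 13.84 and 13.79, differed by 0.13 (95% interval -0.06 to 0.31), and Mcm2, at 11.11, 10.93 and 10.99 against 11.13, 11.14 and 10.93, by -0.06 (-0.30 to 0.18). The S-phase median was 0.041, with 11 of 18 above 0, against 0.024 and 56.0% over all genes. It turned to -0.012 when arrays were centred on their medians, to -0.007 with quantile normalization and to -0.018 without wild type 1B.

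In the mitotic set, Ttk rose and Kif23 fell, 1 of 21 in each direction, where 3.7% of all genes were called higher and 1.25% lower. Ttk had 10.64, 10.45 and 10.45 in Ednrb NCC null, all above the wild type arrays (0.44, SE 0.09, 1.36-fold, adjusted p = 0.0171), and its dimmer probe set was 1.56 higher. The mean of both probe sets gave 0.999. The call was lost without Ednrb NCC null 6 (adjusted p = 0.0513) or wild type 1B (0.0706). Kif23 had 10.35, 10.41 and 10.54 in Ednrb NCC null against 10.73, 10.92 and 10.83 in wild type, with no overlap (-0.39, SE 0.09, 1.31-fold lower, adjusted p = 0.0295). Its dimmer probe sets, at mean log2 7.47 and 4.24 against 10.63 for the brightest, differed by -0.49 and -0.32 and were not tested. Leaving out any 1 of the 6 arrays compared, Ednrb NCC null 2, 5 or 6 or wild type 1B, 1C or 1D, lost the Kif23 call (adjusted p from 0.0502 to 0.0971), as did fitting only the 2 groups (0.0557).

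The remaining 19 mitotic genes did not pass. The mitotic kinase Cdk1 was at 12.28, 12.31 and 12.29 against 11.86, 12.04 and 12.18, wholly above wild type (0.27, SE 0.09, adjusted p = 0.124), as were Birc5 (0.21) and Nusap1 (0.20). Kif11 (-0.12) and Cenpf (-0.13) lay wholly below with Kif23. In all, 4 of 21 genes lay wholly above, near the share of all genes (15.6%), and 3 wholly below, against 6.3% of all genes. Mki67, at 12.70, 12.59 and 12.58, differed by -0.11 (95% interval -0.31 to 0.08). Plk1, Aurkb, Cdc20 and Ube2c, a kinase pair and 2 parts of the anaphase-promoting machinery, differed by -0.18, -0.18, -0.15 and -0.23. Over the 21 genes 10 were above 0 and the median was -0.028, against 56.0% of all genes and a median of 0.024. The mitotic median stayed below 0 under both other scalings and turned to 0.021 without Ednrb NCC null 6 and to 0.048 without wild type 1C. Other cell types' markers differed between these groups. Summed intensity was 50640 to 59660 in Ednrb NCC null against 42560 to 43510 in wild type for 15 gut epithelium markers (3 called higher), 58570 to 68140 against 50180 to 55190 for 10 smooth muscle markers (1 higher) and 6321 to 7257 against 3270 to 4927 for 9 mesothelium markers (1 higher). The ranges overlapped for 12 enteric neural crest markers, Ednrb among them, at 7287 to 8173 against 8026 to 10170 (6 called lower). Single crest genes differed more than this sum, with 8 below 0, 4 above and a median of -0.628. Ret was at -3.31, Cdh19 at -2.52, Sox10 at -1.60 and Elavl4 at -1.56, all called. The bright Ednrb (0.15) and Erbb3 (-0.09) were not called. The ranges also overlapped for 11 macrophage markers, at 5261 to 5684 against 3316 to 5292 (2 higher), and for 8 red blood cell markers, at 20980 to 23070 against 17810 to 24540. Of the red blood cell markers 1 was called higher, the embryonic globin Hbb-bh1 (1.02, adjusted p = 0.00336), while Hba-x was at -0.35 and not called. The part of all these markers in the mitotic genes was not tested.

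Between the mutants, the S-phase genes again gave 0 calls of 18, with 2.07% of all genes called higher in Ednrb null and 4.46% lower. Mcm4, a helicase subunit, had 12.36, 12.29 and 12.17 in Ednrb null and 12.10, 12.02 and 11.95 in Ednrb NCC null (0.25, adjusted p = 0.144). Rrm2, the regulated subunit of ribonucleotide reductase, had 12.39, 12.23 and 12.14 against 12.06, 11.96 and 11.84 (0.30, SE 0.11, adjusted p = 0.134). On its dimmer probe sets the difference was 0.34 and 0.62. Both genes lay wholly higher in Ednrb null and Gins2 wholly lower (-0.16); of all genes 11.8% lay wholly higher and 12.4% wholly lower. Ccne1, a cyclin of S-phase entry, had 10.21, 10.03 and 10.58 against 10.39, 10.56 and 10.56 (-0.23, adjusted p = 0.361), with Ednrb null 41 the highest of the 6 arrays. The S-phase median was -0.028, with 8 of 18 above 0, and it turned to 0.037 with arrays centred on their medians, 0.003 with array weights, 0.004 with the mean of all probe sets and 0.009 without Ednrb null 41.

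Plk1 and Kif20a were higher in Ednrb null than in Ednrb NCC null, 2 of 21 mitotic genes against 2.07% of all genes, and none was called lower. Plk1, the Polo kinase of mitotic entry and exit, had 10.79, 10.59 and 10.68 in Ednrb null and 10.19, 10.19 and 10.32 in Ednrb NCC null. These arrays did not overlap (0.45, SE 0.12, 1.37-fold, adjusted p = 0.0497), and wild type, at 10.13, 10.59 and 10.53, spanned from below Ednrb NCC null to the lowest Ednrb null array. Plk1 no longer passed when any of the 6 mutant arrays or wild type 1D was left out (range of adjusted p 0.0519 to 0.185), or with quantile normalization (0.054). Kif20a had 10.61, 10.53 and 10.51 in Ednrb NCC null, all below Ednrb null (0.38, SE 0.08, 1.30-fold, adjusted p = 0.0192), and 0.00 separated Ednrb NCC null from wild type. It lost its call without Ednrb null 29 (0.0881) or 37 (0.057), or without Ednrb NCC null 5 (0.0666) or 6 (0.0813).

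Aurkb, the kinase that corrects chromosome attachment, just missed the threshold. It had 10.23, 10.03 and 10.03 in Ednrb null and 9.75, 9.65 and 9.71 in Ednrb NCC null (0.40, SE 0.11, adjusted p = 0.0503), and 0.50 on its second probe set. It passed under 9 of 17 alternatives, among them without wild type 1B (0.0397) or 1C (0.0253). Ube2c, which feeds ubiquitin to the anaphase-promoting complex, differed by 0.39 (adjusted p = 0.0952), its activator Cdc20 by 0.32, Ccnb2 by 0.29 and the spindle factor Tpx2 by 0.25. Mki67 differed by 0.09 (95% interval -0.10 to 0.28) and Cdk1 by -0.10. In this comparison 20 of 21 mitotic genes were above 0, with a median of 0.131, and 11 lay wholly above (11.8% of all genes) and 1, Cdk1, wholly below (12.4%); over all genes 52.5% were above 0 and the median was 0.009. The mitotic median stayed above 0 in every alternative run, from 0.102 to 0.196. The highest came with arrays centred on their medians, where the median of all genes was also higher, at 0.074, with 67.5% above 0.

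**Figure D4:**
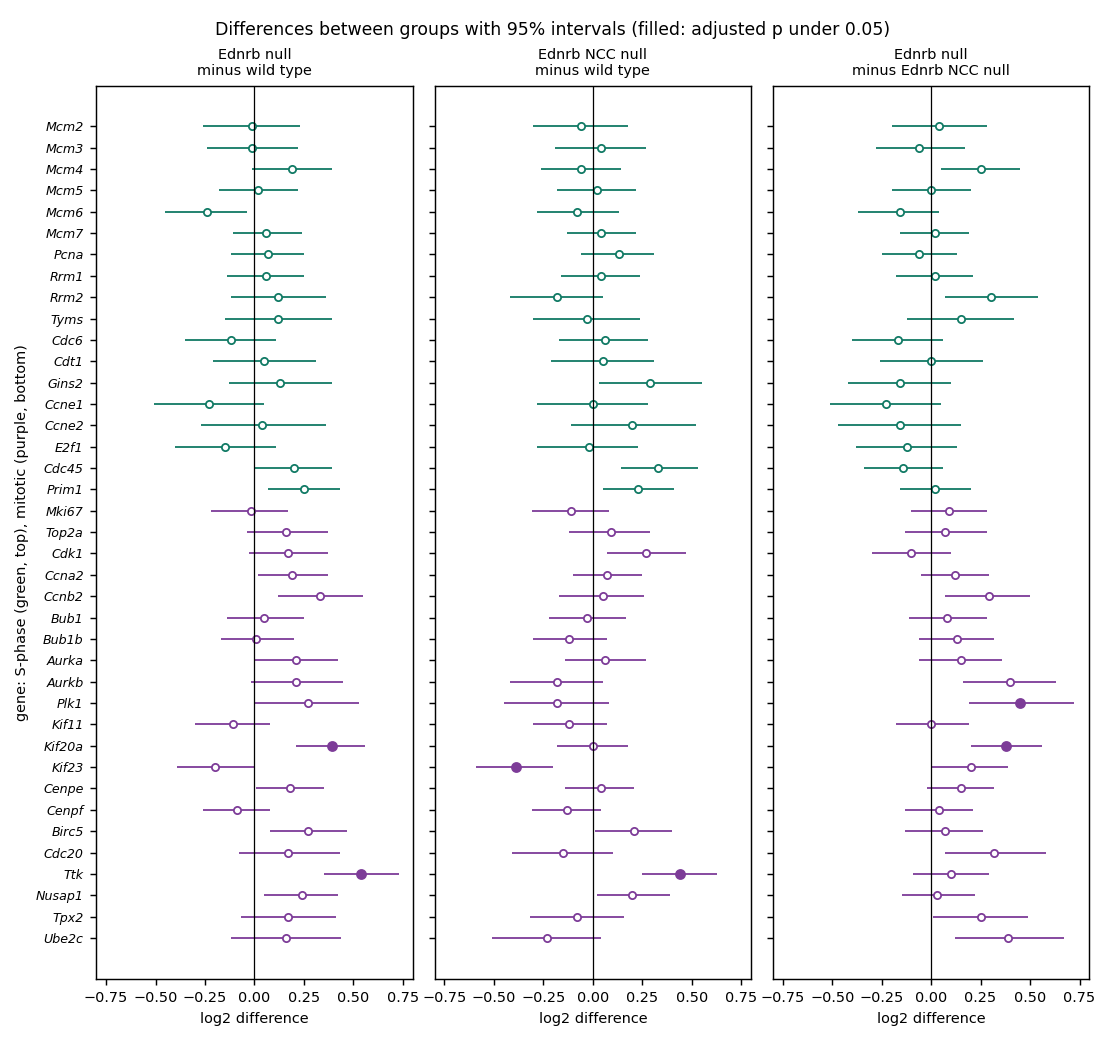
Log2 difference of each of the 39 genes in the 3 comparisons, with its 95% interval; filled points have an adjusted p under 0.05. In the comparison of Ednrb null with Ednrb NCC null, 20 of 21 mitotic genes lie above 0, and filled points are few in every panel.

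The Actb ratio also separated the mutants, at 0.9, 0.8 and 0.9 in Ednrb null against 1.4, 1.03 and 1.21 in Ednrb NCC null, and with it in the model 0 mitotic genes were called (Plk1 adjusted p = 0.586, Kif20a 0.261). In that model the Kif20a difference was about as large, at 0.367, and that of Plk1 was smaller, at 0.278. There 16 of 21 mitotic genes were above 0, with a median of 0.136, against 54.9% of all genes and a median of 0.028. Other cell types' markers differed as well. The summed intensity of 15 gut epithelium markers was 33200 to 43730 in Ednrb null and 50640 to 59660 in Ednrb NCC null, with 9 of 15 called lower, and that of 10 smooth muscle markers was 42230 to 52950 against 58570 to 68140, with 2 called lower. For 11 macrophage markers it was 3433 to 4426 against 5261 to 5684 (4 called lower), and for 9 mesothelium markers 4930 to 6122 against 6321 to 7257 (1 called lower). For 8 red blood cell markers it was 26520 to 28900 against 20980 to 23070. Of these 8, Hba-x (1.14) and Hbb-bh1 (1.13) were called higher, but 4 were above 0 and 4 below, with a median of -0.001. Enteric neural crest markers, 12 measured, summed to 4336 to 5091 against 7287 to 8173 (2 called lower). The 2 called were Ednrb itself (-2.04) and Erbb3 (-0.57). Of the 12, 3 were above 0 and 9 below, with a median of -0.211. Ret was at 0.08, Elavl4 at 0.03, Gfra1 at 0.01, Cdh19 at -0.21 and Sox10 at -0.39, none of them called. The ranges of 9 endothelial markers, none called, overlapped at 5159 to 5575 against 4324 to 5327. Array intensities have no true 0, so none of these markers can be called absent. Their part in the difference of the mitotic genes was not tested.

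Other genes of the replication machinery, 44 of 46 listed, were called at about the share of all genes in Ednrb null: 1 of 44 higher against wild type (2.65% of all genes) and 1 higher than in Ednrb NCC null (2.07%), with none lower. In Ednrb NCC null against wild type 2 were higher (3.7% of all genes) and 1 lower (1.25%). In Ednrb null against wild type 34 of the 44 were above 0, with a median of 0.123, against 60.2% of all genes and 0.039. There 13 lay wholly above wild type and 1 wholly below, against 14.4% and 8.19% of all genes. With the Actb ratio in the model 29 were above 0, with a median of 0.048, against 62.4% of all genes and 0.058. Pold2, a subunit of the lagging-strand polymerase, was higher in Ednrb null than in wild type, at 11.17, 11.19 and 11.01 against 10.44, 10.71 and 10.55 (0.56, limma adjusted p = 0.00885). It was also higher than in Ednrb NCC null (0.45, adjusted p = 0.0233), a call that was lost without Ednrb null 29 or 37 or Ednrb NCC null 5 or 6 (adjusted p from 0.0696 to 0.0974). In Ednrb NCC null against wild type, Rpa3, part of the single-strand DNA binding complex, rose by 0.50 (adjusted p = 0.0171) and Gmnn, which restrains Cdt1, by 0.39 (adjusted p = 0.0329). Pold3 fell by -0.40 there (adjusted p = 0.0386). All 3 of these calls were lost without Ednrb NCC null 5, without 6 or without wild type 1B, Gmnn also without 2, and Pold3 also without 2, Ednrb null 29, wild type 1C or 1D (adjusted p up to 0.0732 for Rpa3, 0.117 for Gmnn and 0.127 for Pold3).

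The wider list of 50 mitotic genes gave 5 higher and 1 lower call in Ednrb null against wild type, where 2.65% of all genes were called higher and 2.39% lower. It gave 2 higher calls in Ednrb NCC null against wild type (3.7% of all genes), and 2 higher and 1 lower between the mutants (2.07% and 4.46%). The condensin subunit Ncapd2 was 0.54 higher (adjusted p = 0.0284), Cdca3, which helps trigger mitotic entry, 0.45 (0.0101), the securin Pttg1 0.42 (0.0164), and the kinetochore gene Cenpk was -0.40 (0.0367). Cdca3 kept its call in every fit that left out 1 array, while that of Ncapd2 was lost without Ednrb null 29 or 41 or wild type 1B or 1D (adjusted p up to 0.113) and that of Pttg1 without Ednrb null 29, 37 or 41 or wild type 1B (up to 0.0623). Cenpk lost its call without any 1 of 8 arrays, all but Ednrb null 37 (up to 0.104), and the mean of its probe sets gave -1.14. In Ednrb NCC null, Cdca3 was 0.42 higher (adjusted p = 0.0177; lost without 5, 6 or wild type 1B, up to 0.0758), and Ndc80, a microtubule anchor of the kinetochore, 0.39 (0.0477; lost without any 1 of 8 arrays, all but wild type 1D, up to 0.187). Between the mutants, Cenpk was -0.57 (adjusted p = 0.00559), Pttg1 0.36 (0.0301) and Racgap1, a partner of Kif23 in the central spindle, 0.45 (0.0467). Pttg1 lost that call without Ednrb null 29, 37 or 41 or Ednrb NCC null 5 or 6 (up to 0.124), and Racgap1 without any 1 of the 6 mutant arrays or wild type 1B (up to 0.188). In Ednrb null against wild type 45 of these 50 genes were above 0, with a median of 0.122, against 60.2% of all genes and 0.039. There 16 lay wholly above wild type and 1 wholly below, against 14.4% and 8.19% of all genes. With the Actb ratio in the model 36 were above 0, with a median of 0.065, against 62.4% of all genes and 0.058. Between the mutants 38 of these 50 genes were above 0, with a median of 0.073. With the Actb ratio in the model 28 were, with a median of 0.018, against 54.9% of all genes and a median of 0.028.

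Ccnd1, cyclin D1 of the G1 phase, fell in both mutants. It had 11.22, 11.28 and 11.60 in wild type, 10.62, 10.81 and 10.84 in Ednrb null and 10.69, 10.66 and 10.73 in Ednrb NCC null, so that wild type lay wholly above both. The differences were -0.61 (SE 0.11, 1.53-fold lower, adjusted p = 0.00833) and -0.67 (1.60-fold lower, adjusted p = 0.00702). The first was lost with the Actb ratio in the model (adjusted p = 0.155), where the difference was -0.671, and the second held in all 17 alternatives. Dimmer Ccnd1 probe sets, at mean log2 10.36 and 8.05, differed by -0.24 and -0.38 in Ednrb null. In Ednrb NCC null they differed by -0.51 and -0.84, and none of these was tested. Of the 17 genes of G1 cyclins, kinases and E2F factors, E2f2 was called as well, with Ednrb null below wild type (-0.37, adjusted p = 0.039) and below Ednrb NCC null (-0.36, adjusted p = 0.0399). E2f2 lost the first call without Ednrb null 29, 37 or 41, Ednrb NCC null 5, or wild type 1B, 1C or 1D (up to 0.119) and the second without any Ednrb null array or Ednrb NCC null 5 or 6 (up to 0.164). Of 18 cell cycle inhibitors and pocket proteins, none passed against wild type. Between the mutants, Ccng2, a cyclin of arrested cells, was 0.45 higher in Ednrb null (adjusted p = 0.0194) and the stress gene Gadd45b was lower (-0.61, adjusted p = 0.00765). The Ccng2 call was lost without Ednrb null 29 or 41 or Ednrb NCC null 5 or 6 (up to 0.0851). Every call of Ednrb null in these 4 lists, against wild type or the other mutant, was lost with the Actb ratio in the model (adjusted p from 0.0534 to 0.603). All kept their direction there, and many were as large or larger: against wild type Pold2 was at 0.571 and Ncapd2 at 0.622, and between the mutants Gadd45b was at -0.802, while Cdca3 was smaller against wild type, at 0.335. Calls lost in that model also included Ndc80 (adjusted p = 0.0544) and Pold3 (0.0506) in Ednrb NCC null. Fitting only the 2 groups compared ended the calls of Ncapd2 (0.0735), Cenpk (0.0925), E2f2 (0.071) and Ndc80 (0.091) against wild type in Ednrb null, and of Gmnn (0.0611), Pold3 (0.0548) and Ndc80 (0.0888) in Ednrb NCC null. The mean of all probe sets ended that of Cdca3 in Ednrb NCC null (0.111) and those of Pttg1 (0.0714) and Racgap1 (0.149) between the mutants, and moved E2f2 to -0.59 and -0.62. Centring the arrays ended the calls of Gmnn (0.0526) and Ndc80 (0.0685) in Ednrb NCC null and of E2f2 between the mutants (0.0588), quantile normalization those of Ndc80 in Ednrb null (0.0647) and Ednrb NCC null (0.0513), and eBayes with trend that of E2f2 against wild type (0.0506).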

How the data were processed

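The authors deposited 1 RMA intensity per probe set and array on a linear scale, per the submitters' processing notes; the RMA version is not given in the sources used here. Intensities ran from 5.69 to 61637 and were converted to log2 with no pseudocount. Of 45101 probe sets, 64 controls were left out, 34945 named 1 gene and 932 several. The brightest of each gene over the 9 arrays gave 18193 genes, of which 18032 matched a RefSeq table (GRCm38.p6) by Entrez ID. No per-sample column was left unused.

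limma 3.58.1 in R 4.3.3 fitted a mean per group over all 9 arrays, with 2-sided tests and Benjamini-Hochberg adjustment over all genes of a comparison; a gene was called at an adjusted p under 0.05. The script was tested on simulated data. Standard errors and 95% intervals come from this fit. The number of arrays limits the precision.

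Members and lists were chosen with earlier results of these data known. Named genes are all members, with values per array for called ones, the 3 of smallest p in each set and comparison, and Mki67, Pcna and Mcm2, and up to 4 called genes per other list. A few other members are described because they did not overlap or lay near the threshold, and these were picked after their values were seen. Alternatives were array centring, quantile normalization, a filter on the dimmest 40% of genes, fitting 2 groups, a robust eBayes with trend, array weights, averaging a gene's probe sets, the Actb ratio as a covariate, an adjusted p under 0.10, and leaving out each array.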

Additional observations from a re-analysis of the deposited data

Results flagged for a closer look

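The difference between the mutants is also the difference between their changes from the shared wild type arrays. By that test the log2 change was larger in Ednrb null than in Ednrb NCC null by 0.45 for Plk1, 0.38 for Kif20a, 0.45 for Pold2, 0.36 for Pttg1, 0.45 for Racgap1 and 0.45 for Ccng2. It was smaller or more negative for Cenpk (-0.57), E2f2 (-0.36) and Gadd45b (-0.61). Groups of 3 arrays are too small to test for a sample that stands apart.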

How the results depend on the processing

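No paired analysis was possible because the groups share no replicate numbers. Arrays have no count depth, 3 per group limit what can be detected, and RMA compresses small differences. No called gene changed direction under any alternative. Ednrb null against wild type: S-phase calls were 1 with quantile normalization and 1 with the mean of probe sets, against 0; mitotic calls were 1 with 2 groups fitted, 4 with the mean of probe sets, 0 with the Actb ratio, and 1 to 2 when an array was left out, against 2. Ednrb NCC null against wild type: S-phase calls were 1 with quantile normalization, without the dimmest genes, with array weights and at an adjusted p under 0.10, and 0 to 1 when an array was left out; mitotic calls were 1 with 2 groups and 0 to 2 when an array was left out. Between the mutants: the S-phase median was 0.037 with centred arrays and -0.113 with the Actb ratio, and S-phase calls were 2 with array weights and 1 with the mean of probe sets. Mitotic calls there were 5 with centred arrays (median 0.196), 4 with 2 groups, 5 with array weights, 0 with the Actb ratio, 4 at an adjusted p under 0.10, and 0 to 4 when an array was left out. The cause was not tested for any of these. Over the named genes and their alternatives, 507 fits kept their side of the threshold, 155 lost a call and 18 gained one.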

Other observations

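In Aurka, Bub1 and Ttk a dimmer probe set differed by more than 1 log2 unit where the brightest probe set of the same gene did not; these were picked after their values were seen and not tested. The dimmer Aurka probe set read 5.16, 5.87 and 5.47 in wild type, 7.14, 7.31 and 7.18 in Ednrb null and 6.82, 6.82 and 7.12 in Ednrb NCC null, against differences of 0.21 and 0.06 on the brightest. The dimmer Bub1 probe set read 7.86, 8.27 and 7.83 in wild type, 7.06, 6.82 and 6.65 in Ednrb null and 7.40, 7.25 and 7.77 in Ednrb NCC null, against 0.05 and -0.03. That of Ttk is given above. For the 19 members with more than 1 probe set of mean log2 at least 9, 43 probe sets in all, the median gap between probe sets of 1 gene was 0.07 and the largest 0.32.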
